A study of Mus musculus with 6 samples.

Results

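The genes described here are 10 members of the BCL2 family of survival and death regulators, measured in cultured group 2 innate lymphoid cells (ILC2) from mouse brain. They were chosen by symbol, with earlier results of these data known. All 10 were found among the 24421 gene rows of the deposited count table. ILC2 are tissue lymphocytes that lack antigen receptors and secrete type 2 cytokines. The cells came from brains of C57BL/6 mice, an inbred strain, and were sorted by ILC2 surface markers. The cells of both groups were then grown for 2 weeks in 20% fetal calf serum with stem cell factor (SCF), IL-33, IL-2 and IL-7, so the cytokine exposure is shared. Mice aged 2 to 3 months gave the 3 young libraries, and mice aged 20 to 22 months gave the 3 aged libraries. Whether libraries within a group stand for separate animals, pools or cultures is not stated, so p-values reflect no more than how far these libraries differ from each other, which may be technical. The design implies one comparison, aged against young cultured cells.

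BCL2 family proteins decide at the outer mitochondrial membrane whether a cell releases cytochrome c and activates caspases. Survival members (Bcl2, Bcl2l1, Mcl1 and the Bcl2a1 genes) hold the pore-forming effectors Bak1 and Bax in check. BH3-only proteins such as Bcl2l11 (BIM), Bid, Bad and Pmaip1 (NOXA) bind the survival members or engage the effectors. In lymphocytes, cytokines such as IL-7 and IL-2 keep cells alive in large part through survival members, and cytokine withdrawal raises BIM.

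Library totals ran from 16477157 to 20804291 counts, and 11805 genes passed the filter on low counts, all 10 members among them. Levels are given as CPM, counts relative to the library's size after TMM scaling, which sets the bulk of genes equal between libraries. Every ILC2 marker on the list of 15 reached 10 counts in at least 1 library. The summed list was at 15890 to 18500 CPM of library totals in young and 11640 to 13990 in aged libraries. These sums are not TMM-scaled, and the TMM factors were 1.12 to 1.18 in young and 0.84 to 0.885 in aged libraries. TMM scaling would lower the young sums and raise the aged ones, so the gap between these sums depends on the scaling. Within the ILC2 list Klrg1 was at 89.0 to 113 in young and 0 to 3.43 in aged libraries, and Il17rb at 7.82 to 22.3 and 0 to 3.64. Gata3 was at 394 to 528 in young and 140 to 190 in aged libraries. Id2 and Thy1 went the other way, higher in every aged library than in any young one. The lineage markers Cd3e and Cd4 of T cells, Ncr1 of NK cells and all 5 neutrophil markers measured had 0 counts in the 6 libraries, while Cd3g and Lck of the T cell list and Prf1 of the NK list had counts in every library. Of 10 microglia and macrophage markers, 8 reached 10 counts in a library. Their sum was 9.31 to 20.9 CPM of library totals in young and 56.7 to 85.3 in aged libraries, mostly Tmem119 and P2ry12 in aged. Csf1r and C1qa were at 0 in the 6 libraries. The other markers of this list did not move together. Adgre1 was at 1.941 to 4.795 in young libraries and at 0 in every aged one. Cx3cr1 was at 0.7993 to 6.676 in young and 0 to 1.236 in aged libraries. Lyz2 went the other way, at 0 in young and 5.487 to 10.07 in aged libraries, while Aif1 and Itgam overlapped between the ages.

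Most of the family did not pass the test. Bcl2a1b, a survival member, averaged 1.22 ± 1.03 CPM in young libraries and rose to 9.39 ± 1.33 CPM with age (± SD, n = 3 per group). Pmaip1, which encodes the MCL1 antagonist NOXA, fell from 43.8 ± 8.01 to 23.7 ± 3.96 CPM. Thus 1 of 10 members was higher, where 11.2% of all tested genes were, and 1 was lower, where 8.14% were, by the quasi-likelihood test of edgeR (Benjamini-Hochberg adjusted p under 0.05 over all genes). In either direction 19.4% of tested genes passed, so the members' share of calls is near that of the table. At an unadjusted p under 0.05 there were 2 members higher and 2 lower. The members' median log2 change was -0.03 and their mean 0.25, opposite in sign, beside a median of -0.10 over all tested genes. Libraries of the 2 ages did not overlap for 3 members (Bcl2a1b, Bad and Pmaip1), against 38.2% of tested genes. In these bulk libraries, more cells with a transcript and more of it per cell cannot be told apart.

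**Figure D1:**
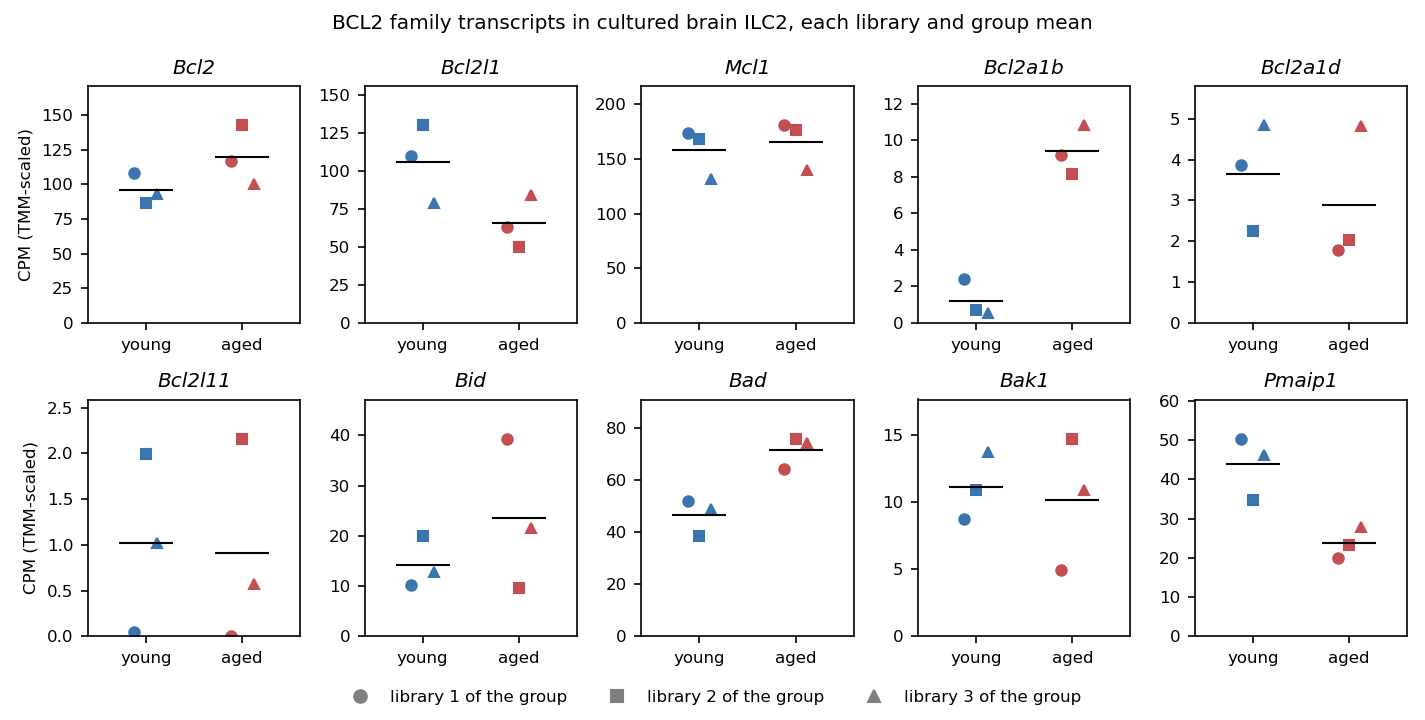
Level of each of the 10 members in TMM-scaled CPM (vertical axis, from 0, own scale per panel) in the 3 young and 3 aged libraries, with a marker shape per library number and a line at the group mean. The groups separate for Bcl2a1b, Bad and Pmaip1, and the spread within a group is as wide as the gap between groups for Bcl2l11, Bid and Bak1.

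Among the survival members, Mcl1, a short-lived protein that lymphocytes need at all stages, was the most abundant. It was at 173, 169 and 131 CPM in young libraries 1 to 3 and at 181, 177 and 140.0 CPM in aged libraries 1 to 3. The groups overlapped across nearly their whole range, and the log2 change was 0.07 ± 0.18 (SE; adjusted p = 0.832, edgeR). Mcl1 lies on chromosome 3 (95658788 to 95663176, GRCm38).

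Bcl2, the founding member and a survival factor downstream of IL-7, was at 108, 86.5 and 93.05 CPM in young and at 117, 143 and 100.2 CPM in aged libraries. The lowest aged library lay below the highest young library, and the log2 change of 0.32 ± 0.19 (SE) did not pass (adjusted p = 0.287, edgeR). Bcl2 (chromosome 1, 106538178 to 106714274) has 9157 bases of summed exons, which puts it in the longest length quintile of tested genes, where the median log2 change was -0.47. With an offset for exon length and GC content Bcl2 passed, with a log2 change of 0.74 (adjusted p = 0.0248, range over its alternatives 0.0248 to 0.730).

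Bcl2l1, which encodes the survival protein BCL-XL, was at 110, 130.0 and 78.8 CPM in young and at 63.5, 50.1 and 84.1 CPM in aged libraries. Aged libraries 1 and 2 lay below all young libraries, and aged library 3 lay just above young library 3. The log2 change of -0.69 ± 0.25 (SE) did not pass (adjusted p = 0.0790, edgeR). It did pass in 4 of 18 alternatives, among them scaling by totals alone (-1.11, adjusted p = 0.0128) and the fits without young library 3 or aged library 3 (range over all alternatives 0.0128 to 0.274). Bcl2l1 lies on chromosome 2 (152780668 to 152831728).

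Bcl2a1b and Bcl2a1d belong to a mouse cluster of near-identical genes on chromosome 9 that encode A1, a small survival protein of haematopoietic cells. Their coding sequences, 516 bases each, differ at 6 bases (98.8% identity). Counted from the A of the start codon, with the Bcl2a1b base first, these are G4T, T48C, A94C, G312A, C381G and T490A. The first 75 coding bases, the length of a sequencing read, are shown from the GENCODE transcripts because reads had to be assigned on such differences, which are in capitals. The Bcl2a1b stretch is at chr9:89199360-89199434 on the plus strand and the Bcl2a1d stretch at chr9:88731645-88731719 on the minus strand (GRCm38).
Bcl2a1b: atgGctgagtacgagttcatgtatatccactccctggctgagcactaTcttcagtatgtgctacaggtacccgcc
Bcl2a1d: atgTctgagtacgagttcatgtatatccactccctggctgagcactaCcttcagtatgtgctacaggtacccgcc

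Of all 75-base windows of the Bcl2a1b transcript, 43.5% occur unchanged in another Bcl2a1 gene, and 68.4% occur in some other annotated gene, including the overlapping Gm29094. For Bcl2a1d the share in another Bcl2a1 gene is 67.6%. The counting tool is not given in the sources used here, so reads from such windows may have been dropped or split, and the counts of both genes are uncertain. The other 8 members share no 75-base window with a Bcl2a1 gene, but Bad shares 32.3% of its windows with Gpr137, Bid 23.7% with Bcl2l13, Bak1 14.1% with Ggnbp1 and Bcl2 5.96% with D630008O14Rik, each on the opposite strand. Without the strand setting, reads from a gene and its antisense partner cannot be told apart.

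Bcl2a1b had 46, 17 and 11 counts in young libraries 1 to 3 and 139, 121 and 170 counts in aged libraries 1 to 3, or 2.40, 0.693 and 0.560 CPM against 9.22, 8.16 and 10.8 CPM. Every aged library lay above every young library, and young library 1 was the highest of its group. The log2 change was 2.94 ± 0.83 (SE; adjusted p = 0.0289, edgeR). The call held in 1 of 6 fits that each left out a library (without young library 1, adjusted p = 0.0235) and was lost in the others, with adjusted p up to 0.0913. The log2 changes of the 6 fits ran from 2.63 to 3.91, highest without young library 1. It was also lost with the length and GC offset (log2 change 1.97, adjusted p = 0.132), and its adjusted p spanned 0.000863 to 0.147 in the 17 alternatives. The summed microglia and macrophage markers given above were also higher in aged libraries. So were 7 dendritic cell markers, at 76.6 to 98.7 CPM of library totals in young and 270.1 to 297 in aged libraries, mostly Batf3, with Clec9a and Siglech at 0. The NK cell and ILC1 list, mostly Prf1 and Klrk1 with 5 of 7 markers at 0, was at 2.61 to 5.58 in young and 10.1 to 28.5 in aged libraries on the same scale. The B cell list, mostly Cd79b with 4 of 6 markers at 0, was at 15.96 to 25.7 in young and 34.4 to 55.0 in aged libraries. Other lists were lower in aged libraries on that scale. The fibroblast list, mostly Dcn, was at 9.61 to 17.7 in young and 0 to 0.113 in aged libraries. The neuron and glia list, mostly Mbp, was at 23.8 to 43.2 and 15.1 to 15.7. Whether cells of any of these lists were present, and what part they had in the Bcl2a1b rise, was not tested.

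Bcl2a1d had 74, 55 and 95 counts in young and 27, 30 and 76 counts in aged libraries, or 3.86, 2.24 and 4.83 CPM against 1.79, 2.02 and 4.83 CPM. The ranges overlapped, and the log2 change of -0.34 ± 0.91 (SE) did not pass (adjusted p = 0.848, edgeR). Bcl2a1a had 0 counts in the 6 libraries, and Bcl2a1c had 1, 3 and 0 counts in young and 0, 0 and 1 in aged libraries. The 4 genes were also summed into one feature, which does not depend on how reads were split among them. The sum does not restore reads that were dropped or given to Gm29094, which overlaps 49.1% of the Bcl2a1b exon length. The summed level was 6.32, 3.06 and 5.39 CPM in young and 11.01, 10.2 and 15.7 CPM in aged libraries. Aged libraries still lay above young ones, but the log2 change was 1.32 ± 0.55 (SE), short of the threshold (adjusted p = 0.122, edgeR). The size of the rise and its call thus differ between Bcl2a1b alone and the sum.

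The upstream sequences of the pair are shown because one gene passed and its near copy did not. Each stretch, from the RefSeq promoter table (GRCm38.p6), ends at the base before the GENCODE transcript start. Capitals mark matches to the pattern TGANTCA, where N is any base, which reads TGAATCA in both. The Bcl2a1b stretch is at chr9:89199023-89199208 on the plus strand and the Bcl2a1d stretch at chr9:88731915-88732100 on the minus strand.
Bcl2a1b: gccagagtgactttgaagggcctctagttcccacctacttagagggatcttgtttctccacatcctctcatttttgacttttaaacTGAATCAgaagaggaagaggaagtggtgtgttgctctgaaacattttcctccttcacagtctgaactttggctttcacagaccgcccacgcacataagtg
Bcl2a1d: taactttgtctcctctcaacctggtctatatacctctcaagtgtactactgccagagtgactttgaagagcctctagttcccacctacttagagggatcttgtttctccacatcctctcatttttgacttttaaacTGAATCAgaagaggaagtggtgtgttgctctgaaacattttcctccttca

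The stretches align over 142 columns with 1 mismatch and 6 gap columns (95.1% identity), offset because the annotated starts differ. Over the 250 bases before each annotated RefSeq start, searched on both strands, TGANTCA was present in 2 of 13 promoters of the 9 members matched in that table, those of Bcl2a1b and Bcl2a1d, and in 6.75% of 32851 promoters of all genes. The STAT motif TTCNNNGAA (7.02% of promoters) and the hypoxia-response core ACGTG (16.6%) were in none of the 13, and an NF-kB consensus (3.90%) was in 1, at an alternative start of Bcl2l1. Pmaip1 was the member not matched, so its promoter was not searched. The Bcl2a1b and Bcl2a1d matches lie in near copies and are not separate observations. A match describes these letters only and is not a measured binding site.

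Bak1, an effector that forms pores in the mitochondrial membrane, was at 8.77, 10.9 and 13.7 CPM in young and at 4.91, 14.7 and 10.9 CPM in aged libraries. The aged range enclosed the young range, and the log2 change of -0.13 ± 0.53 (SE) did not pass (adjusted p = 0.905, edgeR). Its coefficient of variation was 22.2% in young and 48.5% in aged libraries. Bak1 lies on chromosome 17 (27019810 to 27029009), and 25.5% of its exon length overlaps Ggnbp1 on the opposite strand. Bax, the other effector, was more abundant at 512 ± 60.0 and 573 ± 54.3 CPM (SD, n = 3 each) and did not pass (log2 change 0.16 ± 0.14, adjusted p = 0.474, edgeR), but with the length and GC offset its change turned to -0.64 and passed (adjusted p = 0.0190, range over alternatives 0.0103 to 0.792).

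Of the 4 BH3-only members, Pmaip1 alone passed the test. Pmaip1 (chromosome 18, 66458533 to 66465565) was at 50.3, 34.8 and 46.3 CPM in young and at 20.0, 23.3 and 27.8 CPM in aged libraries, with 301 to 963 counts behind each value. No aged library reached a young one, and the log2 change was -0.89 ± 0.28 (SE; adjusted p = 0.0456, edgeR). The call lay close to the threshold. It was lost in 5 of 6 fits that left out a library (log2 changes of -1.02 to -0.76, adjusted p up to 0.195) and held only without aged library 3 (0.0492). It was larger when libraries were scaled by their totals alone (-1.30, adjusted p = 0.00718, the lowest of a range up to 0.195) and with the length and GC offset (-1.21, adjusted p = 0.00899). Pmaip1 fell in 9 of 18 alternatives at that threshold and was below 0 in all 18.

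Bad, a BH3-only protein held inactive by phosphorylation downstream of growth factors, was at 52.1, 38.7 and 48.8 CPM in young and at 64.1, 75.7 and 74.1 CPM in aged libraries. Every aged library was above every young one. The log2 change of 0.62 ± 0.21 (SE) did not pass in edgeR (adjusted p = 0.0687), while DESeq2 called it (0.65, adjusted p = 0.0268, range over alternatives 0.0268 to 0.614). Scaled by totals alone it was 0.20, and with the length and GC offset 0.21. Bad lies on chromosome 19 (6941861 to 6951899), with 20.5% of its exon length opposite Gpr137.

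Bid, which is cut by caspase 8 and links death receptors to mitochondria, was at 10.2, 19.9 and 12.8 CPM in young and at 39.3, 9.57 and 21.6 CPM in aged libraries. Aged library 1 was the highest and aged library 2 the lowest of the 6. The log2 change of 0.71 ± 0.50 (SE) did not pass (adjusted p = 0.384, edgeR), and it fell to 0.12 without aged library 1. Bid (chromosome 6, 120891930 to 120916853) overlaps Bcl2l13 on the opposite strand over 17.7% of its exons.

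Bcl2l11, the BIM gene, was near the limit of detection with 1, 49 and 20 counts in young and 0, 32 and 9 counts in aged libraries. The exact Poisson 95% interval, which covers counting error only, was 0.0253 to 5.57 for young library 1 and 36.3 to 64.8 for young library 2, so the young libraries stood further apart than counting error allows. In aged libraries 1 and 2 the intervals were 0 to 3.69 and 21.9 to 45.2. The log2 change was -0.17 ± 1.68 (SE; adjusted p = 0.961, edgeR), an error too wide to tell a rise from a fall, and leaving out a library moved it between -1.81 and 0.75. Bcl2l11 lies on chromosome 2 (128126038 to 128162547).

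Per kilobase of summed exon length, the scale on which genes can be compared, Mcl1 led in both groups at 46.1 ± 6.71 CPM per kb (young) and 48.5 ± 6.56 CPM per kb (aged; SD, n = 3 each). In young libraries Bcl2l1 (23.2 CPM per kb), Bad (18.2) and Pmaip1 (16.03) followed, each overlapping its neighbour in that order, and then Bcl2 (10.5), which lay below Pmaip1 in every library. Bak1 (4.62), Bcl2a1d (4.22) and Bid (4.03) overlapped each with the next, and Bcl2a1b (1.49) was below the range of Bid in 2 of 3 libraries. Bcl2l11 (0.127) was last. In aged libraries Bad (27.9 CPM per kb) was second and stood apart from both neighbours on this length. Below it Bcl2l1 (14.4), Bcl2 (13.1), Bcl2a1b (11.5), Pmaip1 (8.67), Bid (6.61), Bak1 (4.23) and Bcl2a1d (3.34) overlapped each with the next, and Bcl2l11 (0.113) was again last. Several of these separations depended on the length used. With the longest annotated transcript in place of summed exons, aged Bad was at 46.5 CPM per kb, within the range of Mcl1 (48.5). Young Bcl2l1 was at 41.4 CPM per kb and overlapped Mcl1 (46.1), Bad was at 30.4 and stood above Pmaip1 (16.1), and Pmaip1 overlapped Bcl2 (13.3). Bid moved from rank 8 to rank 6 in young and changed places with Pmaip1 in aged libraries.

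Ratios of counts within a library do not depend on how libraries are scaled. They still carry any trend with gene length or GC content, since the genes of a pair differ in both. With the offset for these, the log2 change of Bad was 0.21 in place of 0.62, and that of Bcl2l1 -0.66 in place of -0.69. Of 11 pairs of a death gene and a survival gene, or of 2 survival genes, 8 had counts in every library and 5 of these did not overlap between the ages. Over all 53970855 pairs of tested genes with counts in every library the share was 36.4%. The pairs share members, so they are not separate observations, and no test was made.

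Bad counts were 0.474, 0.298 and 0.620 of Bcl2l1 counts in young and 1.01, 1.51 and 0.881 in aged libraries. All aged libraries lay above all young ones, by 2.49-fold between the geometric means. The ratio of Bcl2 to Bcl2l1 was 0.985, 0.666 and 1.18 in young and 1.85, 2.85 and 1.19 in aged libraries, where aged library 3 and young library 3 almost met. Pmaip1 counts were 0.290, 0.207 and 0.353 of Mcl1 counts in young and 0.111, 0.132 and 0.199 in aged libraries, a ratio 1.94-fold lower in aged. Against Bcl2a1b the Pmaip1 ratio was 20.9 to 82.7 in young and 2.17 to 2.85 in aged libraries, 17.6-fold lower in aged, with the uncertain counts of Bcl2a1b in its denominator. Bid to Bcl2l1 was 0.0927 to 0.163 in young and 0.191 to 0.619 in aged libraries. The ratios of Bak1 to Mcl1, Bak1 to Bcl2l1 and Mcl1 to Bcl2l1 overlapped, the last by 1.666 in young library 3 against 1.664 in aged library 3.

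**Figure D2:**
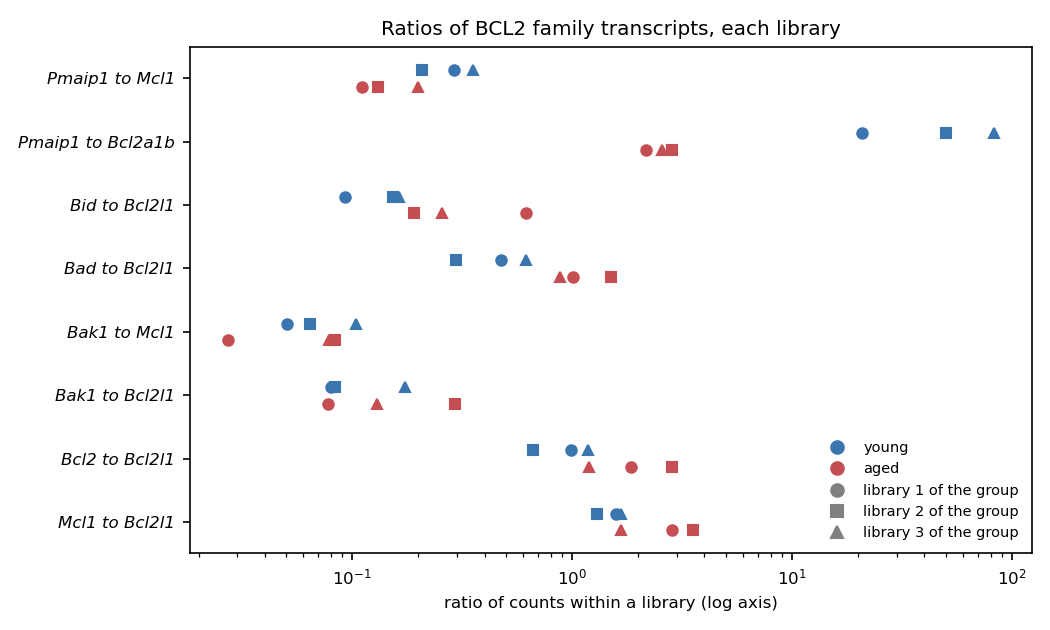
Ratio of counts within each library (log axis) for 8 pairs of members, with young libraries above aged ones in each row and a marker shape per library number. Aged libraries lie to the right for Bad to Bcl2l1, Bid to Bcl2l1 and Bcl2 to Bcl2l1 and to the left for both Pmaip1 pairs, without overlap.

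Across the table the change followed gene length, which bears on a family whose exon lengths run from 817 to 9157 bases. The shortest quintile of tested genes, up to 2339 bases, had a median log2 change of 0.49, and the longest, from 7398 bases, -0.47. Bcl2a1b and Bcl2a1d lie in the shortest quintile and changed by 2.94 and -0.34. Bad, Bid, Mcl1, Bak1 and Pmaip1 lie in the next quintile, whose median was 0.05, and Pmaip1 was the lowest of them at -0.89. Bcl2l1 lies in the middle quintile (median -0.17), and Bcl2 and Bcl2l11 in the longest.

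**Figure D3:**
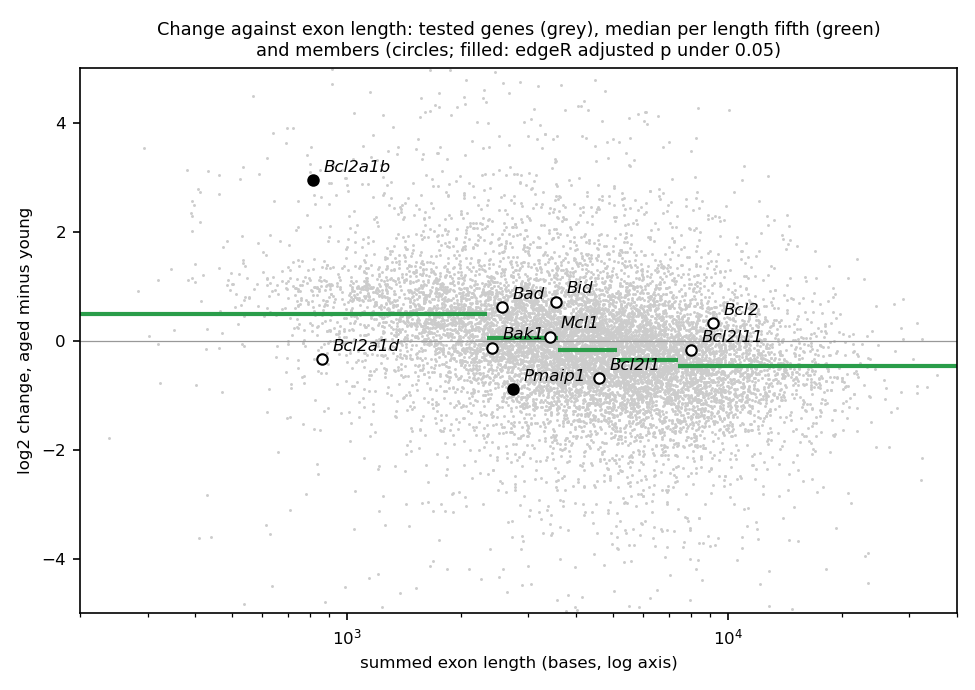
Log2 change of aged minus young (vertical axis, shown from -5 to 5) against summed exon length in bases (log axis) for tested genes in grey, with the median of each length quintile as green bars from 0.49 to -0.47, and the 10 members as circles, filled where the edgeR adjusted p was under 0.05. Bcl2 lies above and Pmaip1 below the bar of its quintile.

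Library scaling moved the whole family. When libraries were scaled by their totals alone, the median log2 change of all tested genes was -0.52 in place of -0.10, and that of the members -0.45. On that scale Bcl2 (-0.10) and Mcl1 (-0.35) changed sign, neither passing. Bcl2a1b was still the highest member and Pmaip1 and Bcl2l1 the lowest.

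**Figure D4:**
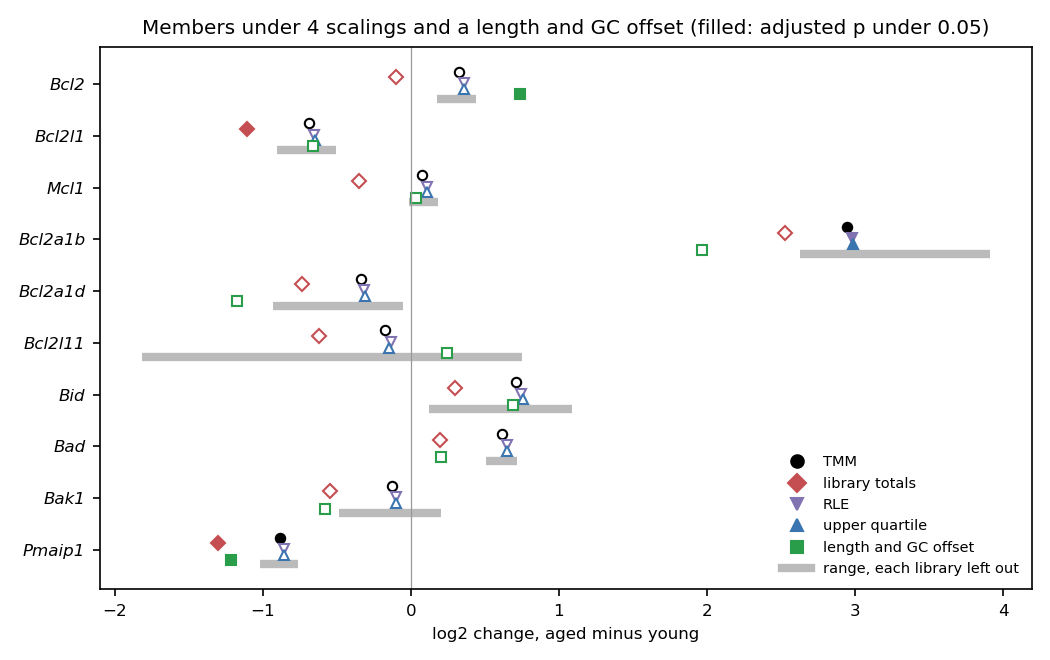
Log2 change of each member (horizontal axis) with TMM, library totals, RLE and upper quartile scaling and with a length and GC offset, filled where the adjusted p was under 0.05; the grey bar spans the fits that each left out a library. Library totals shift the members to the left, and the bar of Bcl2l11 runs from -1.81 to 0.75.

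Among 17 other genes of the family and its BH3-motif relatives, 12 were tested, 4 rose and 1 fell, where 11.2% and 8.14% of all tested genes did, with a median log2 change of 0.43. That median was 0.0058 when libraries were scaled by totals alone and 0.081 with the length and GC offset, and 3 genes fell in each of these fits. The mitophagy receptors Bnip3 and Bnip3l rose from 111 ± 14.5 to 912 ± 131 CPM and from 36.6 ± 7.89 to 155.7 ± 19.0 CPM (SD, n = 3 each; adjusted p = 1.65e-06 and 9.36e-05, edgeR). Bcl2l15 rose by 2.25 ± 0.25 and the BH3-only gene Bik by 1.05 ± 0.19 on the log2 scale (SE), and Bik lost its call with the length and GC offset (0.32, adjusted p = 0.328, range over its alternatives 8.62e-07 to 0.359). Becn1, an autophagy protein that BCL2 binds, fell by 0.81 ± 0.18 (adjusted p = 0.0105, edgeR) and was named after its value was seen. Bbc3, the p53-induced BH3-only gene PUMA, changed by -0.76 ± 0.31 on the log2 scale, short of the threshold (adjusted p = 0.113, edgeR). It did pass with the length and GC offset (-1.44, adjusted p = 0.00262) and with scaling by totals alone (-1.19, adjusted p = 0.0180). With a replicate block Bbc3 passed narrowly (adjusted p = 0.0485), and the range over its alternatives was 0.00262 to 0.314. Part of the exon length of Bcl2l15, Bnip3 (22.3%) and Becn1 (43.9%) overlaps another gene, and reads from such stretches cannot be assigned without knowing the counting. Bmf and Hrk did not pass the count filter, with 35, 17 and 0 counts of Bmf in young and 0 in each aged library.

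**Figure D5:**
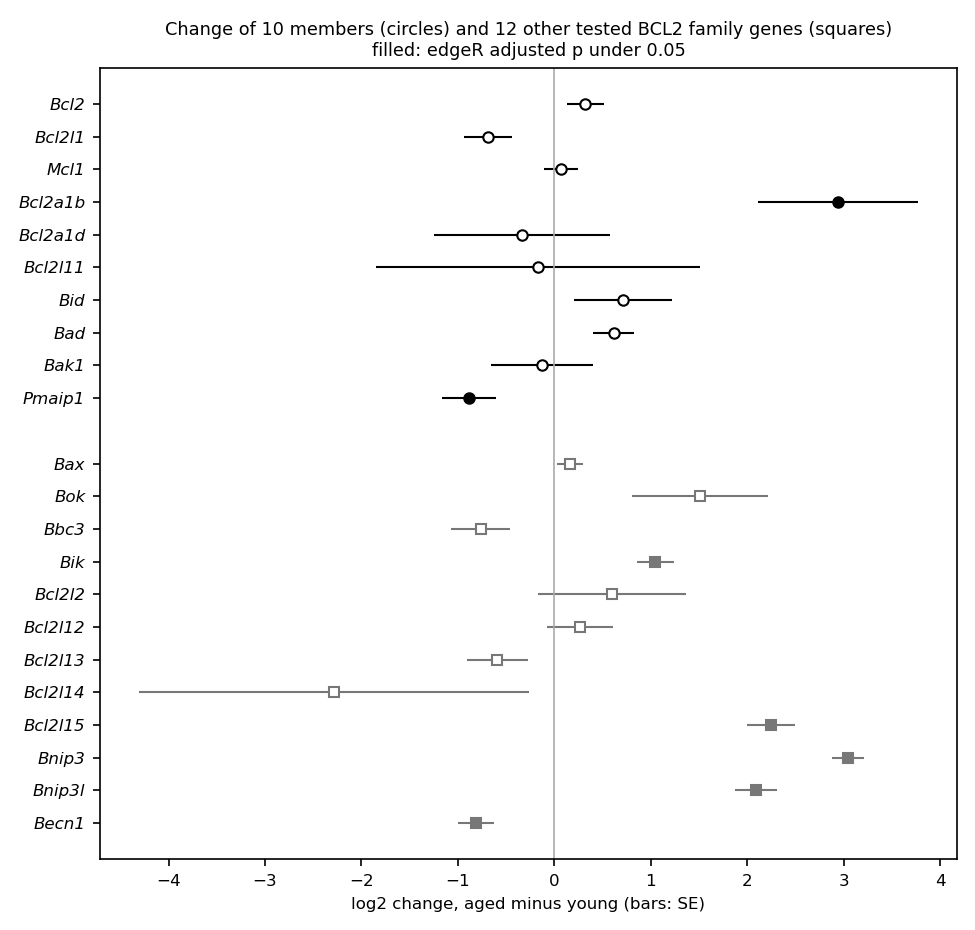
Log2 change of aged minus young with its SE (horizontal axis) for the 10 members (circles) and 12 other tested family genes (squares), filled where the edgeR adjusted p was under 0.05. Bnip3 at 3.04 and Bcl2a1b at 2.94 are the highest, and the error of Bcl2a1b is wider than that of Bnip3.

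Downstream of the mitochondrion, 2 of 20 tested apoptosome, caspase and caspase inhibitor genes rose and none fell in edgeR, against 11.2% and 8.14% of all tested genes, with 1 lower at an unadjusted p under 0.05, 1 lower in DESeq2 and 0 in limma-voom. In each of these, 3 genes were higher. The median log2 change was 0.21, which turned to -0.21 with scaling by totals alone, where 1 gene rose and 2 fell, and was 0.078 with the length and GC offset. Birc5, the inhibitor and mitotic protein survivin, rose from 199.5 ± 10.4 to 458 ± 46.7 CPM (SD, n = 3 each). Endog, a mitochondrial nuclease, rose by 0.98 ± 0.22 (SE), a change that was -0.0076 with the length and GC offset. Cycs, the cytochrome c gene, had a log2 change of 0.58 ± 0.19 (SE), short of the threshold (adjusted p = 0.0545, edgeR). It did pass in DESeq2 (adjusted p = 0.0174) and limma-voom (adjusted p = 0.0267), and was 0.17 with scaling by totals alone (range over its alternatives 0.00738 to 0.542).

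Upstream, 4 of 20 transcription factors known to act on family genes rose and 3 fell, against 11.2% and 8.14% of all tested genes. Scaled by totals alone 2 rose and 8 fell, and with the length and GC offset 3 rose and 7 fell. Nfkb1, a subunit of NF-kB, which drives Bcl2a1 genes, rose from 94.3 ± 22.0 to 295 ± 66.6 CPM, and the stress factor Atf4 from 313 ± 22.1 to 639.6 ± 71.5 CPM (SD, n = 3 each). The other NF-kB subunits, named after their values were seen, did not pass, with log2 changes of -0.60 ± 0.25 for Rela (adjusted p = 0.128), -0.73 ± 0.28 for Nfkb2 (adjusted p = 0.101), -0.04 ± 0.21 for Relb and -0.07 ± 1.89 for Rel (SE, edgeR). Rela and Nfkb2 fell with the length and GC offset (-0.92 and -0.77) and with scaling by totals alone (-1.03 and -1.15). Stat5a and Stat5b, which carry IL-2 and IL-7 signals to Bcl2 and Bcl2l1, fell by 1.45 ± 0.31 and 1.15 ± 0.27 on the log2 scale (SE; adjusted p = 0.00761 and 0.0128, edgeR). Stat5a passed in every alternative (adjusted p up to 0.0437). Stat5b lost its call without young library 1 (adjusted p = 0.0539) or young library 2 (adjusted p = 0.0514). Of 6 tested receptors for the culture cytokines, 2 fell and none rose in edgeR, against 8.14% and 11.2% of all tested genes, with 0 higher at an unadjusted p under 0.05, in DESeq2 and in limma-voom. Il2ra fell by 0.42 ± 0.12 and Il1rl1 by 0.82 ± 0.16, and Il2ra did not pass with the length and GC offset (-0.26) or in 4 of 6 fits that left out a library (all but those without young library 3 or aged library 3; adjusted p up to 0.155). Il7r (0.32 ± 0.21) and Il2rb (0.27 ± 0.16) did not pass. The SCF receptor gene Kit, named after its values were seen, did not pass the count filter, with 9, 47 and 109 counts in young and 0 in each aged library.

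Of 26 genes whose products bind, modify or degrade family proteins, 4 rose and 4 fell, against 11.2% and 8.14% of all tested genes, with a median log2 change of -0.15. Scaled by totals alone 3 rose and 10 fell, with a median of -0.57, and with the length and GC offset 3 rose and 7 fell. Pim3, a kinase of the group that phosphorylates BAD, rose from 89.1 ± 19.1 to 279 ± 64.4 CPM (SD, n = 3 each). Dynll1, a dynein light chain that binds BIM, rose by 1.01 ± 0.14 and Tpt1, which encodes a partner of MCL1, by 0.91 ± 0.14 on the log2 scale (SE). Hspa8, a constitutive chaperone, fell by 0.86 ± 0.13.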

How the data were processed

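The authors deposited unnormalized counts, 1 whole number per gene symbol and library. Listed in the submitters' processing notes, with no role or order, are mm10 as build and the tools STAR 2.5.3a, DESeq2 1.1, Cufflinks 2.0, bcl2fastq 2.20.0.422 and FastQC 1.0.0. Counter, annotation and strand were not given in the sources used here. Libraries were grouped by the age in their titles. Counts were fitted on the whole table with edgeR 4.0.16 in R 4.3.3 (filterByExpr with a minimum count of 10 and a minimum total of 15, TMM, glmQLFit and glmQLFTest), with Benjamini-Hochberg adjustment and a threshold of 0.05. The standard error is the log2 change divided by the root of F. The script was tested on simulated data with 200 genes changed. It recovered 13.5% of 2-fold and 54.6% of 4-fold changes at the threshold, and 1.49% of calls were false. A gene that did not pass may therefore still have changed. The common biological coefficient of variation was 53%. Exon lengths and coordinates are from GENCODE vM21 (GRCm38), matched for 98.3% of symbols. A 75-base window was called shared on an exact match to a transcript of another gene on either strand. The offset for length and GC content is a smooth per library (mgcv 1.9.3). Alternatives were DESeq2 1.42.0, limma 3.58.1 (voom), other scalings and filters, robust dispersion, a replicate block, leaving out each library and summed Bcl2a1 genes. All members are named, with the 4 genes of smallest p in each list (2 where none passed) and Bax, Bbc3, Bcl2a1a, Bcl2a1c, Il7r and Stat5b; some genes under this rule are not reported here. Members and lists were chosen with earlier results of these data known.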

Additional observations from a re-analysis of the deposited data

How the results depend on the processing

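The number of members that rose (1) and fell (1) was sensitive to the settings. It was 0 higher and 2 lower with library totals as the sole scaling, 2 higher and 1 lower in DESeq2, 1 higher and 0 lower with RLE scaling, upper quartile scaling and limma-voom, and 1 higher and 2 lower with no filter on low counts. With the Bcl2a1 genes summed it was 0 higher and 1 lower. Leaving out a library gave 0 to 1 higher and 0 to 2 lower. Whether the replicate numbers of the titles pair the libraries is not stated. Deviations of same-numbered libraries correlated at 0.0088 to 0.0414, and those of differently numbered ones at -0.0273 to 0.0125. Correlations this small, with 3 libraries per group, cannot decide it. With a replicate block 0 members were higher and 0 lower. At an unadjusted p under 0.05 in edgeR 2 were higher and 2 lower. Over all tested genes, library totals gave 717 higher and 2381 lower against 1325 and 961, the length and GC offset with the replicate block gave 801 higher, and leaving out a library gave 915 to 1344 higher and 399 to 849 lower, lowest without young library 1 (399) and young library 2 (480). Signs turned with library totals for Bcl2 (-0.10), Mcl1 (-0.35), Bax (-0.25), Il2rb (-0.15) and Il7r (-0.089), none past the threshold. With the length and GC offset they turned for Bcl2l11 (0.25), Bax (-0.64, also with the block) and Endog (-0.0076, and -0.023 with the block). Leaving out a library moved Mcl1 between -0.013 and 0.18, Bcl2l11 between -1.81 and 0.75 and Bak1 between -0.49 and 0.21. Apart from what each setting changes by construction, the cause was not tested. Counts under 50 per library limit Bcl2l11 and, in the young libraries, Bcl2a1b, and counts under 100 limit Bcl2a1d.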
